A study of Mus musculus with 6 samples.

Results

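The genes described here are 9 core components of the Hedgehog pathway in mouse bone marrow mesenchymal stem cells (BMSCs): Gas1, Boc, Cdon, Ptch1, Smo, Gli1, Gli2, Gli3 and Hhip. They were taken by gene symbol from a table of 54532 annotated genes and joined by gene identifier to the read counts. Of the 9 genes, 8 had at least 1 count in some library and 7 had enough counts to be tested. All cultures were wild-type primary BMSCs, kept for 7 days in osteogenic medium with β-glycerophosphate at 10 mM, ascorbic acid at 50 μg/mL and, by the sample labels, dexamethasone at 100 nM. The study's methods give another dexamethasone concentration. The Ni group also received 0.1 μM nickel, as nickel chloride, and the control group received vehicle, with 3 independent biological replicates in each group.

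In the Hedgehog pathway a secreted ligand (Sonic, Indian or Desert hedgehog) binds the receptor Patched (Ptch1) together with the coreceptors Gas1, Boc and Cdon, which ends the inhibition of Smoothened (Smo) by Patched at the primary cilium. Smoothened then keeps Gli2 and Gli3 from being processed into repressors, and the Gli activators switch on Gli1, Ptch1 and Hhip, so that the receptor and the decoy Hhip dampen the signal that induced them. In the growth plate Indian hedgehog, made by prehypertrophic chondrocytes, directs progenitors toward the osteoblast lineage.

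RNA was read on 18183515, 16101033 and 16579825 counts in control replicates 1 to 3 and on 18642504, 17365933 and 17991046 counts in Ni replicates 1 to 3. Levels are given as counts or as FPKM (fragments per kilobase of gene, scaled to library depth), and differences as log2 fold changes of Ni over control with their standard error (SE). Differences were tested by edgeR's quasi-likelihood F-test, and adjusted p-values follow Benjamini and Hochberg over all 14624 tested genes. All 15 markers of stromal cells in a list of such genes were detected, at a summed 12141 to 19031 counts scaled to library size (CPM) in the controls and 23401 to 28355 CPM in the Ni libraries. Much of this sum was Col1a1 and Col1a2, at means of 6020 and 4281 CPM in the controls and 13166 and 8403 CPM with Ni. Of the 15 log2 fold changes, 12 were above 0 and 3 below. Macrophage markers were abundant too, with 15 of 15 detected, at a summed 26355 to 31201 CPM in the controls and 26351 to 27080 CPM in the Ni libraries. In such bulk RNA, fewer cells of a type and less RNA per cell cannot be told apart. Control replicate 3 lay between the other controls and the Ni libraries for the osteoblast markers and for Ptch1 and Smo, so values are also given without it. It was set apart because of these values, and leaving out the control nearest to the Ni libraries widens the difference. Calls made without it are therefore not independent evidence.

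RefSeq promoter windows on GRCm38.p6, from 250 bases before to 50 bases after an annotated start, were found for 7 of the 9 genes. Those of Ptch1 and Smo, the genes with the lowest p of the 7 in the comparison of the groups, and of Hhip, the pathway target with no count, are printed 5′ to 3′ with matches to CCACCC (the core of the GLI motif) or GGGCGG (a GC box) in capitals on either strand. They lie at chr13:63565686-63565985 (minus strand), chr6:29735247-29735546 (plus strand) and chr8:80057959-80058258 (minus strand), in that order, and the Ptch1 window lies inside the annotated span of the gene.
Ptch1: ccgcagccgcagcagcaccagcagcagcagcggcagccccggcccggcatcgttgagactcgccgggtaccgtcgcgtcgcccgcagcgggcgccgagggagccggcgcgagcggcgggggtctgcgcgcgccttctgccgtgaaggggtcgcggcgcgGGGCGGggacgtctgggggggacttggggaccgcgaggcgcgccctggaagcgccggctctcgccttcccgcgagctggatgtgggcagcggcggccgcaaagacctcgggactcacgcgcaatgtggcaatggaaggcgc
Smo: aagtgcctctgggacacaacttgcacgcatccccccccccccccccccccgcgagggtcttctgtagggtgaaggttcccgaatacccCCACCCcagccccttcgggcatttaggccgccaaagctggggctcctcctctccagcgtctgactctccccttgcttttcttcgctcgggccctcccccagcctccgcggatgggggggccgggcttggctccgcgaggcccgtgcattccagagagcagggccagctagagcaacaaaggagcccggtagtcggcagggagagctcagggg
Hhip: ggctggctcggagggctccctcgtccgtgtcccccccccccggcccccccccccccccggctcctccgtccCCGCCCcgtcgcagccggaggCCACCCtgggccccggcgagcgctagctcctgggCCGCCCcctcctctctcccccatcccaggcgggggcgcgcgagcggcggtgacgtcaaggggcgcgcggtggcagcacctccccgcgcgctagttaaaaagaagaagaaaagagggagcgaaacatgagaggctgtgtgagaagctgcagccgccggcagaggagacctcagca
The windows were rich in G and C, with 76.3% GC in Ptch1, 67.7% in Smo and 73.7% in Hhip, against a median of 52.7% over 32851 promoter windows. The Ptch1 window held 47 CpG pairs, the Hhip window 30 and the Smo window 17, against a median of 7.

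The longer GLI motif GACCACCCA, searched on both strands, had a match in 0 of the 7 windows and in 0.253% of all windows. Its core CCACCC, which the longer motif contains, matched in 4 of 7 (Gli2, Gli3, Smo and Hhip), where 31.5% of all windows held it. The GC box GGGCGG matched in 5 of 7 (Gli2, Gli3, Gas1, Ptch1 and Hhip), where 35.7% of all windows held it. TATAAA matched in 0 of 7 windows, with 13.6% over all windows, and CCAAT in 2 of 7 (Cdon and Gas1), with 37.4% over all windows. A match of letters describes the window and is not evidence of a bound factor.

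Among the 9 genes, Gas1, Smo and Boc were the most abundant, and the targets Gli1 and Hhip the least. By mean FPKM over the 6 libraries the order was Gas1 at 26.2 ± 5.27 (SD, n = 6), Smo at 10.3 ± 1.87, Boc at 5.35 ± 1.07, Cdon at 1.37 ± 0.290, Ptch1 at 1.34 ± 0.458, Gli3 at 0.975 ± 0.162, Gli2 at 0.399 ± 0.0872, Gli1 at 0.0937 ± 0.0508 and Hhip at 0. Most neighbours in this order were separated in all 6 libraries. The exceptions were Cdon and Ptch1, where Cdon was the higher in 3 of 6 libraries, and Ptch1 and Gli3, where Ptch1 was the higher in 5 of 6. The same order of size is seen in the plot of FPKM by gene and library.

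**Figure D1:**
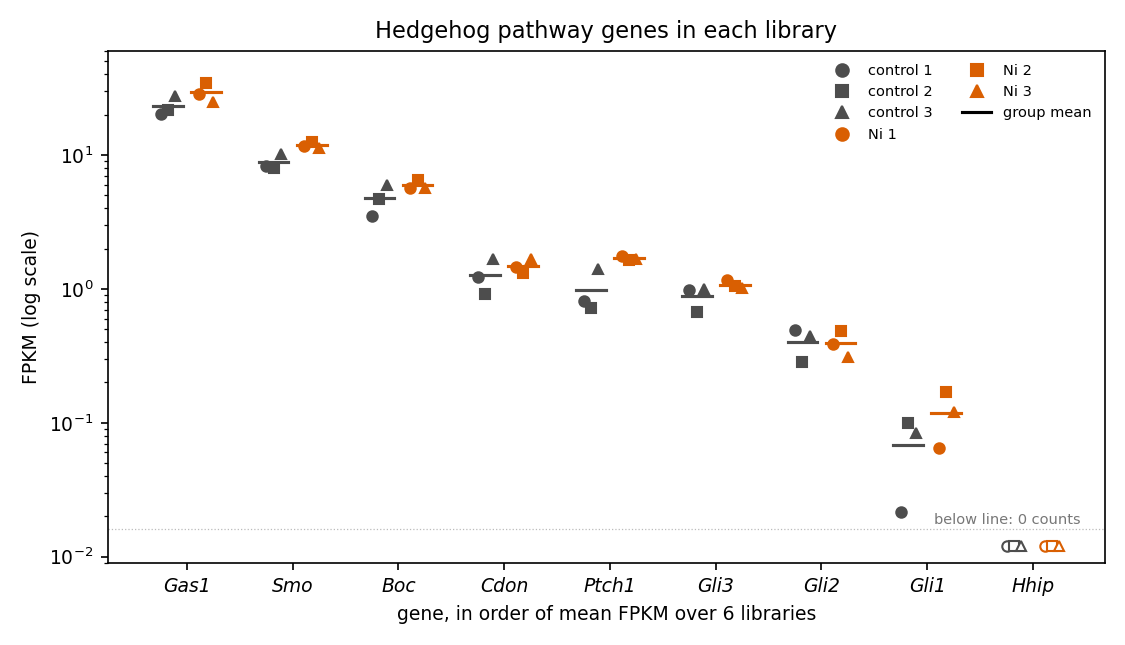
FPKM (log axis) of the 9 Hedgehog pathway genes in each of the 3 control and 3 Ni libraries, with symbols for replicates and lines for group means; open symbols under the dotted line mark 0 counts. All 3 Ni libraries lay above all 3 controls for Ptch1, Smo and Gli3, and Gli1 reached at most 0.171 FPKM.

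No Hedgehog gene passed an adjusted p of 0.05, and neither did any other gene: 0 of 14624, or 0% (edgeR, smallest adjusted p 0.185). At an unadjusted p under 0.05, 2 of the 7 tested Hedgehog genes, Ptch1 and Smo, were higher in the Ni libraries, where 7.59% of all tested genes were, and 0 were lower, where 5.83% were. The log2 fold change was above 0 for 6 of the 7 genes, where it was for 48.1% of all tested genes. The median of the 7 was 0.33, against a median of -0.01 over all tested genes. In log2 CPM the middle gene of the 7 was Ptch1 in every library, with an SD within groups of 0.37. The median fold change of 0.33 is that of Boc. The SD of Ptch1 is thus not the spread of that median, for which no spread was taken. The 3 Ni libraries lay entirely above the 3 controls for 3 of the 7 genes (Ptch1, Smo and Gli3), as they did for 7.97% of all tested genes. With DESeq2's Wald test, 1 Hedgehog gene (Ptch1) passed an adjusted p of 0.05, where 1.53% of the genes given an adjusted p were called higher in Ni. With edgeR and no filter on low counts, 2 passed (Ptch1 and Smo), where 2.55% of genes were called higher. The other settings that kept all 6 libraries gave 0 adjusted calls among the Hedgehog genes. In limma on log2(FPKM + 1) or log2(FPKM + 0.1) the adjusted p of Ptch1 was 0.359 and 0.358. In edgeR with other scalings, at least 10 counts in every library or a replicate block it was 0.0691 to 0.299.

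Ptch1 (ENSMUSG00000021466; GRCm38 chromosome 13, 63508328 to 63573598, minus strand) encodes the receptor that holds Smoothened inactive and is itself a target of the pathway. Read counts of 213, 163 and 337 were obtained in control replicates 1 to 3, and of 464, 407 and 432 in the Ni replicates. In FPKM this was 0.815, 0.719 and 1.41 in the controls and 1.77, 1.63 and 1.68 in the Ni libraries. The Ni libraries were alike and all above the controls, among which replicate 3 was the closest to them. The means were 0.982 ± 0.375 and 1.69 ± 0.0701 FPKM (SD, n = 3 per group), a log2 fold change of 0.78 (SE 0.23), or 1.72-fold, with an unadjusted p of 0.00736 and an adjusted p of 0.293 by edgeR's test across all genes. DESeq2 gave a log2 fold change of 0.79 and an adjusted p of 0.0460.

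Smo (ENSMUSG00000001761; chromosome 6, 29735503 to 29761365, plus strand) encodes the transducer that Patched restrains. Its counts were 851, 718 and 966 in the control replicates against 1220, 1233 and 1153 in the Ni replicates. The corresponding levels were 8.22, 7.99 and 10.2 FPKM in the controls and 11.7, 12.5 and 11.3 FPKM with Ni. The groups did not overlap, and control replicate 3 was again the highest control. The fold change was 1.34, or 0.42 on the log2 scale (SE 0.12), with an unadjusted p of 0.00423 and an adjusted p of 0.272 (edgeR).

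The 3 coreceptors all had positive fold changes that missed the threshold, and their groups overlapped. Gas1 (ENSMUSG00000052957; chromosome 13, 60174405 to 60177365, minus strand), a membrane-anchored protein that presents ligand to Patched, was at 20.1, 21.5 and 27.8 FPKM in the controls and 28.3, 34.6 and 25.0 FPKM with Ni. Its log2 fold change was 0.34 (SE 0.15), with an unadjusted p of 0.0536 and an adjusted p of 0.377 (edgeR). The overlap came from control replicate 3, which was above Ni replicate 3. Of the exon bases of Gas1, 19.9% are shared with Gm48488, a non-coding gene on the opposite strand that had 0 to 4 counts per library.

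Boc (ENSMUSG00000022687; chromosome 16, 44485049 to 44558897, minus strand), an immunoglobulin-family coreceptor, was at 3.52, 4.69 and 6.01 FPKM in the controls and 5.69, 6.49 and 5.67 FPKM with Ni. Control replicate 3 was above Ni replicates 1 and 3. Its log2 fold change was 0.33 (SE 0.18, unadjusted p 0.0973, adjusted p 0.444 by edgeR). Cdon (ENSMUSG00000038119; chromosome 9, 35421128 to 35507652, plus strand), the close relative of Boc, was at 1.22, 0.908 and 1.67 FPKM in the controls and 1.45, 1.31 and 1.66 FPKM with Ni. For Cdon the highest of all 6 libraries was control replicate 3, and the log2 fold change was 0.21 (SE 0.22, unadjusted p 0.351, adjusted p 0.708 by edgeR).

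None of the 3 Gli transcription factors passed either limit. Gli3 (ENSMUSG00000021318; chromosome 13, 15463235 to 15730026, plus strand), the main source of Gli repressor in the absence of ligand, had 172, 103 and 160 counts without and 205, 176 and 176 counts with Ni, or 0.974, 0.672 and 0.991 FPKM against 1.16, 1.05 and 1.01 FPKM. The Ni libraries lay just above the controls, with a log2 fold change of 0.28 (SE 0.18, unadjusted p 0.160, adjusted p 0.533 by edgeR). Gm6556, a non-coding gene on the opposite strand with 1 to 13 counts per library, shares 1.96% of the exon bases of Gli3. Gli2 (ENSMUSG00000048402; chromosome 1, 118834132 to 119053619, minus strand), the main activator, had 62, 31 and 51 counts without and 49, 58 and 39 counts with Ni. The groups overlapped, and Gli2 was the only tested member with a negative log2 fold change, -0.05 (SE 0.30, unadjusted p 0.875, adjusted p 0.962 by edgeR).

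Gli1 (ENSMUSG00000025407; chromosome 10, 127329882 to 127341974, minus strand), an activator that is widely used as the readout of the pathway, was close to the limit of detection. Only 2, 8 and 7 reads were counted in the control replicates and 6, 15 and 11 in the Ni replicates, or a sum of 17 against 32, and did not pass edgeR's filter on low counts. The groups overlapped, since Ni replicate 1 was below control replicates 2 and 3. With no filter the log2 fold change was 0.81 with an SE of 0.73 and an adjusted p of 0.717 (edgeR), so a difference in Gli1 was not detectable at this depth. Of its exon bases, 327 (6.55%) are shared with genes on the opposite strand. These are 62 with Arhgap9, which had 968 to 1167 counts per library, and 265 with Gm47200, which had 0 counts. Whether reads were counted by strand is not given in the sources used here.

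Hhip (ENSMUSG00000064325; chromosome 8, 79965851 to 80058006, minus strand), the membrane-bound decoy that sequesters ligand, had 0 counts in all 6 libraries. A count of 0 allows up to 3 counts, or 0.163 to 0.189 CPM per library, for counting error only. Thus of the 3 genes that the pathway is best known to induce, Ptch1 was measured well, Gli1 barely and Hhip not at all.

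Ratios within a library do not depend on its scaling, and 2 were compared by exact two-sided permutation tests, for which 3 libraries against 3 allow no p below 0.1. The log2 ratio of Ptch1 to Smo in FPKM was -3.33, -3.47 and -2.85 in the controls and -2.73, -2.93 and -2.75 with Ni. Ptch1 was thus higher relative to Smo in the Ni group by 0.42 on average, with Ni replicate 2 below control replicate 3 (means -3.22 ± 0.32 and -2.81 ± 0.11, SD, n = 3, exact permutation p = 0.2, adjusted over both ratios 0.4). The log2 ratio of Gli1 to Gli3 spread widely within groups, at -3.93 ± 1.41 in the controls and -3.27 ± 0.79 with Ni (SD, n = 3, exact permutation p = 0.6, adjusted 0.6), and its group difference of 0.66 became 0.11 with 0.1 added to each FPKM.

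The calls depended on control replicate 3, while the sizes of several fold changes also moved with other libraries. Without control replicate 3, 4 Hedgehog genes passed an adjusted p of 0.05 by edgeR and all 4 were higher with Ni, where 8.69% of all genes tested in that fit were called higher. These were Ptch1 with a log2 fold change of 1.14 (SE 0.13, adjusted p 0.00023), Smo with 0.55 (SE 0.10, adjusted p 0.00287), Gas1 with 0.50 (SE 0.13, adjusted p 0.0229) and Boc with 0.54 (SE 0.15, adjusted p 0.0280), all by edgeR. Leaving out any of the other 5 libraries gave 0 adjusted calls among the Hedgehog genes. The calls without control replicate 3 describe this dependence and are not separate evidence of a difference. The fold changes of Ptch1 and Smo stayed positive throughout, from 0.60 to 1.14 for Ptch1 and from 0.36 to 0.55 for Smo. Gli2 went from -0.25 to 0.11 and so had no settled sign. The coreceptors moved more in proportion: the log2 fold change of Boc was 0.15 without control replicate 1. That of Gas1 was 0.20 without Ni replicate 2. That of Cdon was 0.02 without control replicate 2, 0.12 without Ni replicate 3 and 0.47 without control replicate 3. For Gli3 the value was 0.12 without control replicate 2.

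**Figure D2:**
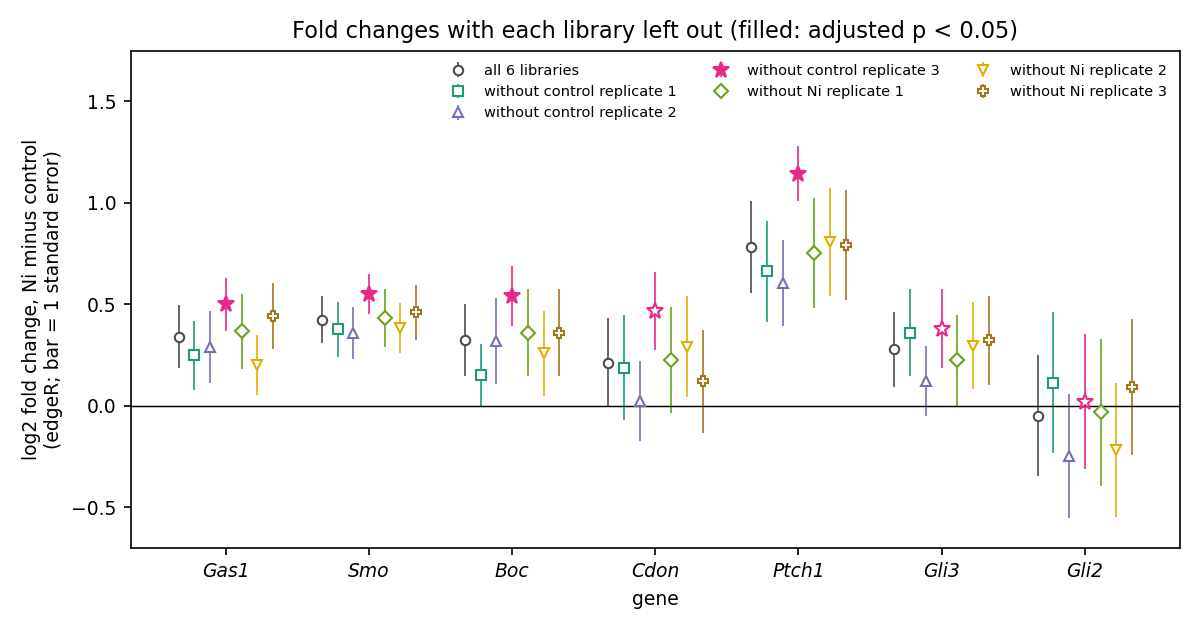
Log2 fold change (Ni minus control, edgeR, bars 1 standard error) of the 7 tested Hedgehog genes with all 6 libraries and with each library left out in turn; filled symbols have an adjusted p under 0.05. Filled symbols occur only without control replicate 3, for Gas1, Smo, Boc and Ptch1.

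Levels of several cell type markers also differed between the libraries, in part in the order seen for Ptch1 and Smo. Relative to the mean of the controls, Ptch1 was at -0.20, -0.38 and 0.59 log2 CPM in control replicates 1 to 3, whereas the Ni libraries were at 0.90, 0.80 and 0.82. Smo was at -0.09, -0.13 and 0.22 in the controls and at 0.42, 0.52 and 0.36 with Ni, a smaller spread with the same highest control. The mean of the 14 osteoblast markers was at -0.28, -0.29 and 0.57 in the controls and 1.37, 0.71 and 1.45 with Ni. The mean of the 15 stromal markers was at -0.20, -0.15 and 0.35 in the controls and 0.55, 0.31 and 0.50 with Ni, while the 15 macrophage markers were at -0.02, 0.09 and -0.07 in the controls and -0.22, -0.16 and -0.29 with Ni. Control replicate 3 was thus the highest control for Ptch1, Smo and the osteoblast and stromal markers, while among the Ni libraries replicate 2 was the lowest for the osteoblast markers and the highest for Smo. The adipocyte markers (0.29 in control replicate 3, the other controls at -0.08 and -0.21) and the smooth muscle and pericyte markers (0.34, the other controls at -0.18 and -0.16) had the same highest control. So did the proliferation genes, at 0.20 in control replicate 3 and 0.13 and -0.33 in control replicates 1 and 2. The chondrocyte markers, at -0.02, 0.01 and 0.01 in the controls and 0.97, 0.40 and 0.83 with Ni, and the endothelial markers, at -0.07 in control replicate 3, did not set that library apart.

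By unadjusted p under 0.05, 14 of 14 osteoblast markers were higher with Ni, where 7.59% of all tested genes were higher and 5.83% lower. They included Col1a1, the main bone collagen chain, at 1.13 on the log2 scale (adjusted p 0.212), Ibsp, a mineral-binding matrix protein, at 1.70 (adjusted p 0.309) and Spp1, osteopontin, at 0.63 (adjusted p 0.367, all edgeR). The osteoblast markers summed to 10375 to 20494 CPM in the controls and 22832 to 30378 CPM with Ni. Of the 15 stromal markers, 7 were higher and 1 lower at the same limit (7.59% and 5.83% over all genes), with Col1a2 at 0.97 (adjusted p 0.210) and the chemokine Cxcl12 at -0.47 (adjusted p 0.292, edgeR), and Col1a1 belongs to both lists. Of the 15 macrophage markers, 0 were higher and 5 lower (7.59% and 5.83% over all genes). The 5 were Aif1 at -0.98, Tyrobp at -0.45, Fcer1g at -0.45, Itgam at -0.40 and Ptprc at -0.36 on the log2 scale (adjusted p 0.306 to 0.346, edgeR), while the most abundant, Lyz2, C1qa and C1qb, were at 0.02, -0.14 and -0.16. No gene of these 3 lists was at 0 in all libraries. The part of these shifts in cell markers in the values of Ptch1 and Smo was not tested.

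**Figure D3:**
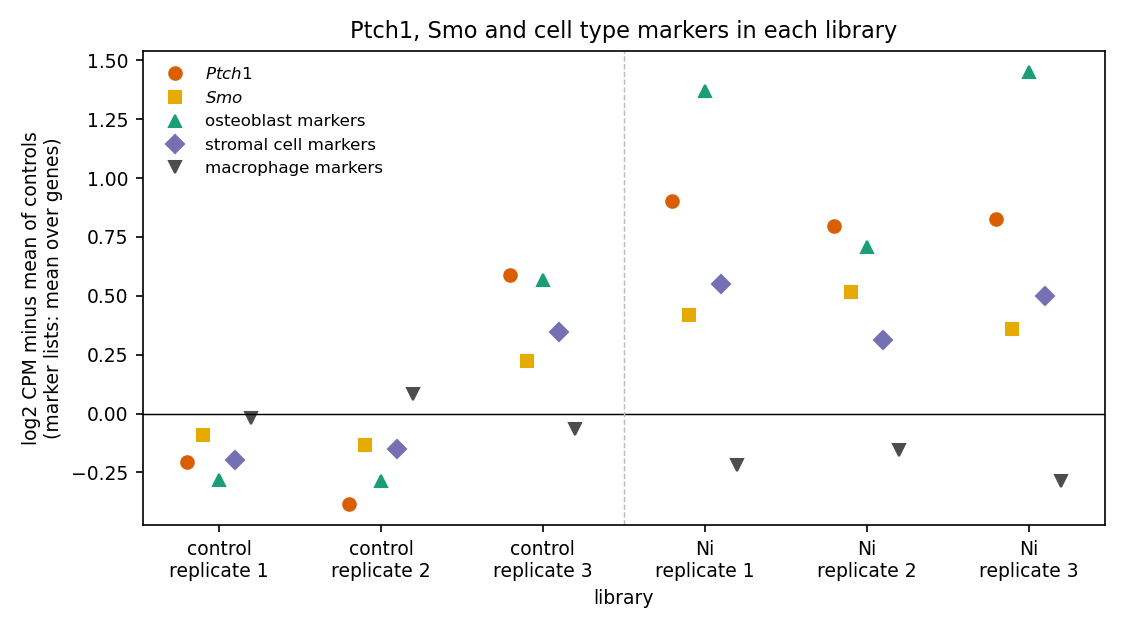
Log2 CPM relative to the mean of the 3 controls, by library, for Ptch1, Smo and the mean over 14 osteoblast, 15 stromal and 15 macrophage markers. Control replicate 3 was above 0 for all but the macrophage markers, at 0.59 for Ptch1 and 0.57 for the osteoblast markers.

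Among the 73 other genes of the pathway, 61 were tested, 0 passed an adjusted p of 0.05 (edgeR, smallest 0.281), and 13 had an unadjusted p under 0.05. Of these 13, 10 were higher with Ni (16.4% of the tested genes, against 7.59% of all genes) and 3 lower (4.92%, against 5.83%). The 10 include Foxl1, which passed the filter on low counts only through the Ni libraries. The median log2 fold change was 0.13, and 39 of the 61 were above 0, where 48.1% of all tested genes were. The number at this limit moved with single libraries, to 22 without control replicate 3 and to 4 and 6 without control replicates 1 and 2. The share over all genes was not taken in those fits, so whether the moves are particular to the pathway was not tested.

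The ligands were scarce. Shh and Dhh had 0 counts in all 6 libraries, with the same upper limit as Hhip, while Ihh was read at 7, 3 and 17 counts without and 10, 1 and 13 counts with Ni, too few to test. Ligand release was represented by Disp1, the Dispatched transporter, at 3.16 ± 0.412 FPKM in the controls and 3.76 ± 0.137 with Ni (SD, n = 3), and by Hhat, the enzyme that palmitoylates the ligand, at 0.689 ± 0.110 and 0.811 ± 0.0952. Neither reached an unadjusted p of 0.05 (0.0891 and 0.256 by edgeR's test across all genes), nor did any of the 4 tested genes of this list. The log2 fold changes of these 4 ranged from -0.50 to 0.26, with 3 above 0 and 1 below.

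Of the 6 tested genes of reception outside the core set, 2 were higher with Ni at an unadjusted p under 0.05. Over all tested genes the share was 7.59%. Gpr161, a ciliary receptor that keeps the pathway off through cyclic AMP, had a log2 fold change of 0.70 (SE 0.30, adjusted p 0.363), and Adcy6, an adenylyl cyclase, 0.38 (SE 0.16, adjusted p 0.364, both edgeR). Both act against the pathway, and in both the groups overlapped.

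Between Smoothened and the Gli proteins 17 regulators were tested. An unadjusted p under 0.05 was reached by 3 that were higher and 0 that were lower, where 7.59% and 5.83% of all tested genes were. Evc, a ciliary partner of Smoothened, had a log2 fold change of 0.50 (SE 0.19, adjusted p 0.339), and Efcab7, which anchors the Evc complex, had 0.74 (SE 0.31, adjusted p 0.353). Rab23, a small GTPase that restrains the pathway, had 0.27 (SE 0.11, adjusted p 0.358, all edgeR). The list's median was -0.02, and Sufu, the main inhibitor of the Gli proteins, was at -0.04 (SE 0.10).

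Signalling from Smoothened needs transport in the primary cilium, and of the 24 transport genes, all tested, an unadjusted p under 0.05 was reached by 2 that were higher and 2 that were lower, where 7.59% and 5.83% of all tested genes were. The higher ones were Ift172 at 0.38 (SE 0.11, adjusted p 0.281) and Ift81 at 0.50 (SE 0.16, adjusted p 0.305), subunits of the intraflagellar transport B complex. The lower ones were Ift52 at -0.26 (SE 0.11, adjusted p 0.357), of the same complex, and Kif3b at -0.23 (SE 0.10, adjusted p 0.367), a subunit of the kinesin-2 motor (all edgeR). The median of the list was 0.13.

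Of 15 further genes reported as Gli targets in other tissues, 10 were tested, and 3 higher and 1 lower reached an unadjusted p of 0.05. Over all tested genes the shares were 7.59% and 5.83%. Foxl1, a forkhead factor, was read at 6, 3 and 8 counts without and 18, 14 and 18 counts with Ni, a log2 fold change of 1.45 (SE 0.49, adjusted p 0.308). It passed the filter on low counts only through the Ni libraries, where it is high. Its place among the 3 higher genes is therefore not evidence of a difference. The cell cycle gene Ccnd2 was at 0.61 (SE 0.23, adjusted p 0.341), and the mesenchymal regulator Snai1 at 0.69 (SE 0.24, adjusted p 0.323). Bmp4, a bone morphogenetic protein, was lower at -0.35 (SE 0.10, adjusted p 0.289, all edgeR), with 26.2 ± 1.70 FPKM in the controls and 20.6 ± 1.51 with Ni (SD, n = 3). Pthlh, which acts with Indian hedgehog in the growth plate, had 0 counts. These genes answer to several pathways, so their list is not specific to Hedgehog signalling.

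**Figure D4:**
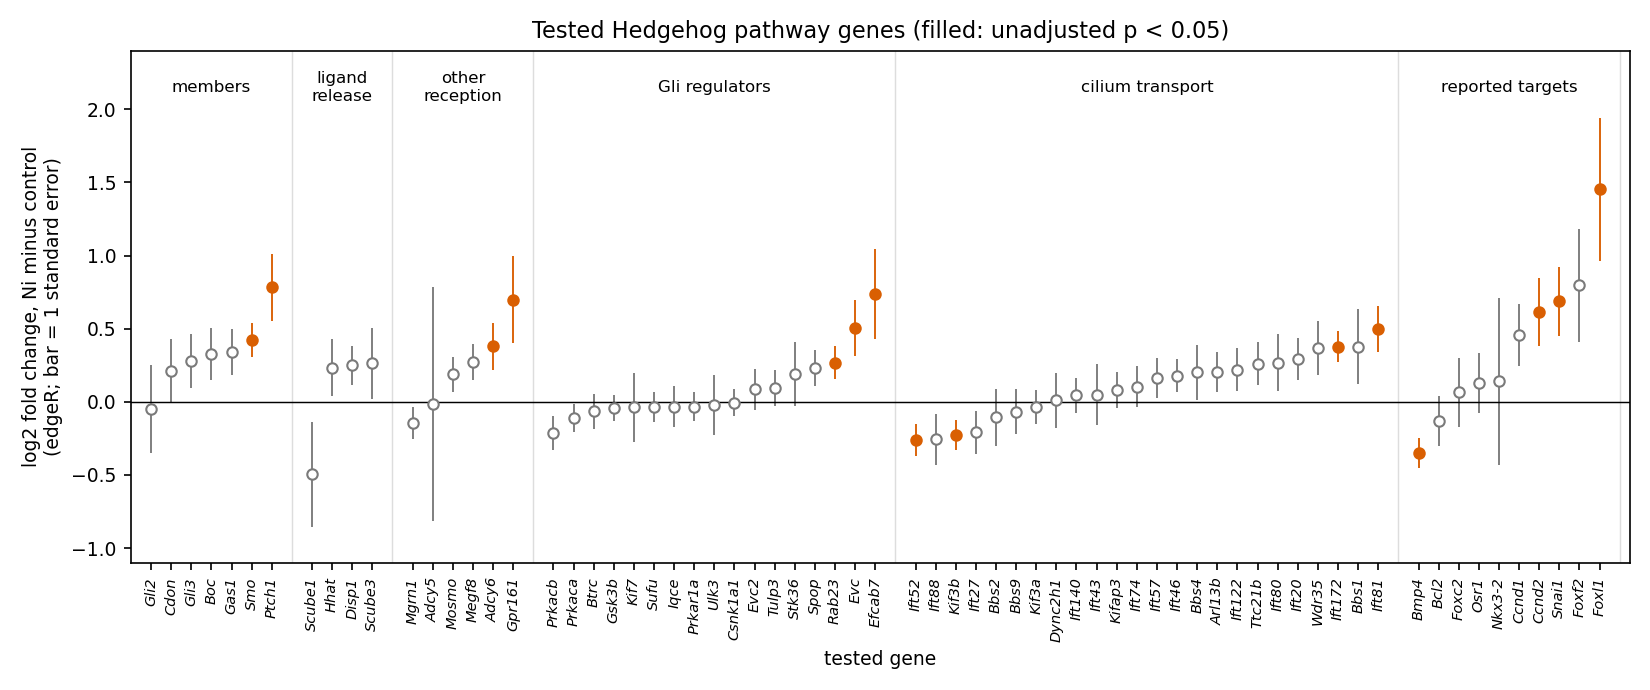
Log2 fold change (Ni minus control, edgeR, bars 1 standard error) of the 7 tested core Hedgehog genes, labelled members, and the 61 other tested pathway genes by list; filled orange points have an unadjusted p under 0.05. Ptch1 at 0.78 and Smo at 0.42 are the filled points of the core set. Foxl1 at 1.45 is the highest of all and passed the filter on low counts only through the Ni libraries.

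The genes whose log2 CPM followed Ptch1 most closely over the 6 libraries, of 13547 compared, were Shc2 (Pearson r = 0.998), Tmem37 (0.997), Eno2 (0.996), Eno1 (0.996) and Atp8b2 (0.996). Their log2 fold changes were 0.99, 0.33, 0.68, 0.35 and 0.56. With 6 points that fall into the same groups for all genes, such values describe the pattern and carry no test. For Gli1 the closest were Pkn3 (0.993), Polm (0.981), Pcdhgb5 (0.981), Wdr72 (0.980) and Gm17018 (0.978), on the 2 to 15 counts of Gli1 per library. No gene was among the closest to both.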

How the data were processed

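The aligner, the counting tool and the strand setting are not given in the sources used here. Per the labels, libraries were made from fragmented mRNA with random primers (NEBNext Ultra RNA kit) and the genome build was GRCm38. The authors deposited raw whole-number read counts per gene and FPKM values for 3 control and 3 Ni libraries. The deposited FPKM equalled count divided by gene length and by 1 factor for each library, to within a relative deviation of 3.29e-07. Replicates were not duplicates (chi-square per degree of freedom 4.37 to 43.6 within groups).

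Counts were filtered (filterByExpr, 14624 of 54532 genes kept), scaled by TMM and tested with the robust quasi-likelihood test of edgeR 4.0.16 (R 4.3.3), and p-values were adjusted by Benjamini-Hochberg over all tested genes. The alternatives were DESeq2 1.42.0, limma 3.58.1 on log2(FPKM + 1) or log2(FPKM + 0.1), other scalings, filters of none or at least 10 counts per library, a replicate block and each library left out. CPM used TMM-scaled library sizes, and log2 CPM a prior count of 2. Likeness was Pearson's r of log2 CPM with Gli1 or Ptch1 over genes with a mean CPM of at least 1. Standard errors were derived from the F statistic. Scripts were tested on simulated data. Same-numbered replicates did not deviate together in every pair, so the numbers were not taken to pair libraries.

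The 9 genes and all lists were chosen with earlier results of these data known. Named genes were the 9 members, genes of the other pathway lists with an unadjusted p under 0.05 or else the most abundant up to 2, the 3 most abundant of each marker list, and the 5 closest to Gli1 and to Ptch1. Sufu, Pthlh, Shh, Dhh, Ihh and the 5 lower macrophage markers were added after values had been seen. So were Hapln1, Sox9, Matn3, Col9a1, Acan, Cspg4 and Aurka in the closing section. Exon overlap was read from GENCODE M21, in which 53462 of the genes have the deposited coordinates.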

Additional observations from a re-analysis of the deposited data

How the results depend on the processing

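The number of Hedgehog genes at an adjusted p under 0.05 was 0 by edgeR. Without the filter on low counts it became 2, and by DESeq2's Wald test 1. It stayed at 0 in limma on FPKM and in edgeR with other scalings or at least 10 counts in every library. With each library left out it was 0 to 4, the 4 without control replicate 3. At an unadjusted p under 0.05 the number was 2; it was 4 with no filter and 2 to 5 with each library left out. The 13 other pathway genes at that limit became 4 to 22 with a library left out: 4 without control replicate 1, 6 without control replicate 2, 22 without control replicate 3, 6 without Ni replicate 1 and 8 without Ni replicate 3. The share of all genes at that limit was not taken in these fits, so whether these moves are particular to the pathway was not tested. Adjusted calls higher with Ni over all genes also moved, from 0% to 2.55% with no filter and 8.69% without control replicate 3. The median log2 fold change of the Hedgehog genes was 0.29 to 0.52 with each library left out. Without control replicate 1, 2 or 3 or Ni replicate 1, Gli1 was tested too, so these fits hold 8 genes. The 0.52, without control replicate 3, is a median of 8 that includes Gli1 at 0.99. The log2 ratio of Gli1 to Gli3 went from -0.12, without control replicate 1, to 1.25, without control replicate 2, against 0.66 with all libraries and 0.11 with 0.1 added to each FPKM. The log2 fold change of Gli2 turned from -0.05 to 0.11, 0.02 and 0.09 without control replicate 1, control replicate 3 and Ni replicate 3, with a range from -0.25 to 0.11 over libraries left out. The ratio of Ptch1 to Smo stayed positive, from 0.29 to 0.60.

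With the replicate number as a block, 0 Hedgehog genes passed an adjusted p of 0.05 and 3 had an unadjusted p under 0.05. The median log2 fold change of the Hedgehog genes was 0.34, and 17 other pathway genes had an unadjusted p under 0.05. The shares over all genes were not taken in this fit. The adjusted p was 0.0691 for Ptch1 and 0.0814 for Smo (edgeR). Correlations of the deviations of same-numbered libraries were 0.01, 0.26 and 0.14, and 4 of 6 libraries correlated best with their own number. Over the 14 alternatives the adjusted p of Ptch1 ranged from 3.28e-05, with no filter on low counts, to 0.830 (both edgeR), and was under 0.05 in 3. That of Smo ranged from 0.00287, without control replicate 3, to 0.830 (both edgeR), and was under 0.05 in 2. With no filter the SE of Ptch1 was 0.15, against 0.23 in the main fit, at a log2 fold change of 0.79. Depth limits Gli1 (2 to 15 counts per library), Ihh (1 to 17) and the genes with 0 counts.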

Other observations

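Markers of chondrocytes, the cells that make Indian hedgehog in the growth plate, were measured beside the scarce Ihh. Of 8 such genes 6 were tested, 5 had an unadjusted p under 0.05 and were higher with Ni (7.59% over all tested genes), and 0 passed an adjusted p of 0.05 (edgeR). Col10a1, the collagen of hypertrophic chondrocytes, was at 1.93 ± 0.519 FPKM in the controls and 3.94 ± 0.867 with Ni (SD, n = 3), a log2 fold change of 1.02 (adjusted p 0.222, edgeR). Comp, a cartilage matrix protein that tendon and osteogenic cultures also make, was at 0.75 and Col2a1, the main cartilage collagen, at 0.50 (adjusted p 0.293 and 0.334, edgeR). Hapln1, a linker of cartilage proteoglycan, was at 1.89 (adjusted p 0.212, edgeR), and Sox9 at 0.90 (adjusted p 0.273, edgeR). Matn3, a cartilage matrilin, was at -0.95 (SE 0.79, adjusted p 0.627, edgeR), on 2 to 30 counts per library. Col9a1, a cartilage collagen, had 0 counts in all libraries and Acan, the main cartilage proteoglycan, 0 to 4.

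The shares of all tested genes with an unadjusted p under 0.05 were 7.59% (higher) and 5.83% (lower). Of 6 tested adipocyte markers, 1 was lower with Ni at an unadjusted p under 0.05, Lpl at -0.49, with Cebpa at 0.13 and Adipoq at 0.16 on the log2 scale (edgeR). Of 10 endothelial markers, 1 was lower, Pecam1 at -0.65, with Cdh5 at -0.19 and Egfl7 at 0.50. Of 10 smooth muscle and pericyte markers, 1 was higher at that limit, Cspg4, a pericyte proteoglycan, at 1.21 (unadjusted p 0.000151, adjusted p 0.185, the smallest over all tested genes by edgeR), and the abundant Acta2, Cnn1 and Notch3 were at 0.41, 0.73 and 0.14 without reaching it. Of 16 proliferation genes, 2 were higher, Rrm2, a subunit of ribonucleotide reductase, at 0.61 and the mitotic kinase gene Aurka at 0.37, while Pcna was at -0.05 and Mcm3 at -0.15.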
